A study of Mus musculus with 12 samples.

Results

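Genes of the choroid plexus and of the ependyma were followed in the brains of 12 mice after stroke. There were 9 such genes among the 49315 of the count table, chosen by name as cell type markers. Of these, 6 mark the choroid plexus epithelium (*Ttr*, *Folr1*, *Kl*, *Clic6*, *Sostdc1* and *Kcnj13*) and 3 mark the ciliated ependyma (*Foxj1*, *Ccdc153* and *Tmem212*). All 9 passed the filter on low counts, which kept 20290 genes for testing, and every mouse had at least 10 counts for each of them.

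The recipients were male CD45.1 Pep Boy mice with intact *Tet2*, aged 8 to 12 weeks at transplant and irradiated with the head shielded. In the WT BM group, 10% of the bone marrow (BM) cells came from CD45.2 *Tet2*+/+ donors, and in the *Tet2*-KO BM group 10% came from CD45.2 *Tet2*-/- donors. In both groups the other 90% came from CD45.1 *Tet2*+/+ donors. These are shares at transplant, and the paper reports that *Tet2*-/- donor cells expanded in the blood afterwards. At 8 to 10 weeks after transplant, all 12 mice had the right middle cerebral artery occluded for 30 min. Brains were taken 14 d later, with 6 mice in each group. The study names the tissue whole brains in one place and whole brain hemispheres in another. The treatment entry of all 12 sample labels names control cells, while titles and genotype entries separate the groups, and these were used. Only transplanted blood cells lacked *Tet2*, so choroid plexus and ependymal cells were *Tet2*-intact in both groups.

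The choroid plexus is a frond of fenestrated capillaries and stroma covered by a tight epithelium that hangs in each brain ventricle and secretes most of the cerebrospinal fluid. Its epithelial cells also load that fluid with carriers and hormones and form the barrier between blood and fluid. Ependymal cells line the ventricle walls, and their motile cilia beat to move the fluid along, under a gene programme led by the forkhead factor *Foxj1* and the RFX factors. Choroid plexus epithelium and ependyma descend from the same neuroepithelium, and both are a very small part of the brain.

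Libraries held 12000261 to 15340787 counts in WT BM mice and 12625047 to 21049763 in *Tet2*-KO BM mice. Together the 9 genes took from 0.0413% to 0.0727% of a library, most of it *Ttr*. *Tet2* itself, at 132 CPM (counts scaled to library size) ± 7.60 (SD, n = 6) in the WT BM group and 131 ± 7.79 in the *Tet2*-KO BM group, is no check of the labels, because most cells of these brains carried the gene in both groups. No library looked like a copy of another of its own group, since pairs within a group had a chi-square of 1.91 to 24.5 per degree of freedom. Pairs across the groups were not compared in this way.

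Promoter sequence is shown for 3 of the genes, *Kl* from the choroid plexus and both ependymal genes for which it was at hand. RefSeq promoters were matched for 4 of the 9 genes, and the 250 bases before the start were read on build GRCm38.p6. Capitals mark any match, on either strand, to an RFX half-site (GTTNCC) or a forkhead core (TGTTTNC), letters chosen after the sequences had been seen. *Kl* is at chr5:150952357-150952606 on the plus strand, *Ccdc153* at chr9:44240427-44240676 on the plus strand and *Tmem212* at chr3:27896369-27896618 on the minus strand.
Kl: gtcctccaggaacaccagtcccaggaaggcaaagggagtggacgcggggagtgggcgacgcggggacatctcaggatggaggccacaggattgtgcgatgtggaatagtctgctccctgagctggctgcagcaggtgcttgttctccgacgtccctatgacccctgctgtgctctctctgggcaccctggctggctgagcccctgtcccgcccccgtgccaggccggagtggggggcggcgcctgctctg
Ccdc153: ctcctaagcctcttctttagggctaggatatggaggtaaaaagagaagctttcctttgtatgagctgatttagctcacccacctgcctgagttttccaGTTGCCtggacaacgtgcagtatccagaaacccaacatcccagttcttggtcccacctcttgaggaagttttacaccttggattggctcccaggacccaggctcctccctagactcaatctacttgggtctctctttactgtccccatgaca
Tmem212: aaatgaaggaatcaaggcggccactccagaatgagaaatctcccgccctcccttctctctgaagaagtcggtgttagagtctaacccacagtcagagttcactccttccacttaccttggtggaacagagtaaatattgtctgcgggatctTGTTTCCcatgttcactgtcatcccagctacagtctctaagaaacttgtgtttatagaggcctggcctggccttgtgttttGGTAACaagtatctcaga
In *Ccdc153* the single match is an RFX half-site 147 to 152 bases before the start. *Tmem212* has an RFX half-site 93 to 98 bases before the start, which lies inside its forkhead match at 93 to 99, and another RFX half-site on the reverse strand at 13 to 18. *Kl* has neither motif in this window, and neither has *Kcnj13* (chr1:87394730-87394979, minus strand, not printed). The OTX core TAATCC was found in none of the 4. Over all 32851 mouse promoters of that length, 39.4% hold the RFX half-site, 17.8% the forkhead core and 6.25% the OTX core, so a match to the first is common. TGTTTAT, which differs from the forkhead core used here in its last base, was not marked. It lies in *Tmem212* and, on the reverse strand, in *Kcnj13*, so which genes hold a match depends on the letters chosen. These matches are descriptions of letters and say nothing of binding, and they do not compare the cell types. GC content was 66.8% in *Kl*, 49.2% in *Ccdc153*, 46.8% in *Tmem212* and 45.2% in *Kcnj13*.

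All 9 genes had a lower estimate in the *Tet2*-KO BM group, and the medians of the 6 choroid plexus genes and the 3 ependymal genes lay close together. The median log2 fold change (*Tet2*-KO BM minus WT BM) was -0.26 over the choroid plexus genes and -0.23 over the ependymal genes, against 0.01 over all tested genes. A log2 fold change below 0 was found for 47.7% of tested genes. None of the 9 passed an adjusted p of 0.05 in the quasi-likelihood F test of edgeR with Benjamini-Hochberg adjustment over all tested genes, as did 0.0246% of all genes in the lower direction. At an unadjusted p below 0.05, 2 of 9 were lower (*Sostdc1* and *Kl*) and none higher, where 12.2% of all genes were lower and 10.8% higher. The DESeq2 Wald test called 1 of the 9 (*Sostdc1*) at an adjusted p below 0.05, beside 4.81% of genes called lower by it, and limma-voom with quality weights called 2 (*Sostdc1* and *Kl*), beside 6.38%. In bulk tissue, fewer cells of a type and less RNA per cell cannot be told apart.

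**Figure D1:**
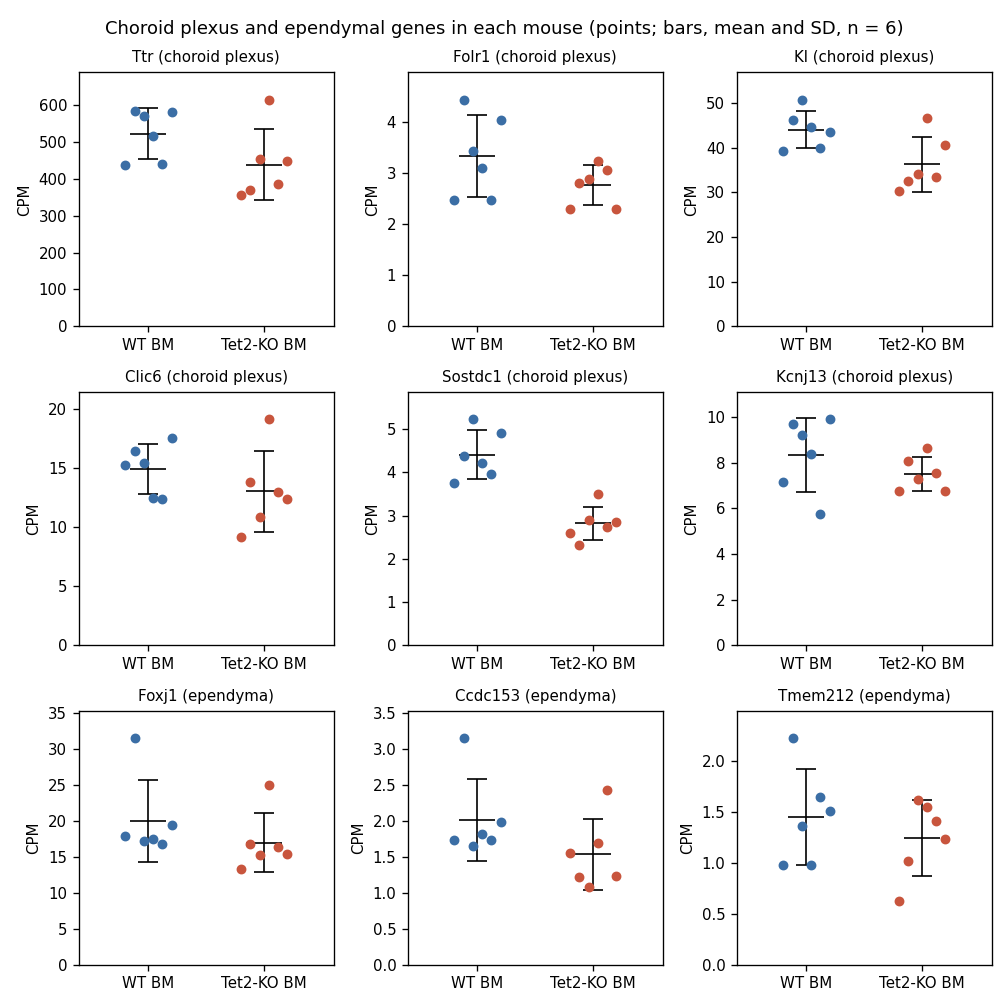
Level in CPM (vertical axis, from 0) of each of the 9 genes in the 6 WT BM and 6 *Tet2*-KO BM mice, 1 point per mouse, with the mean and SD as bars. The groups overlap in every panel but that of *Sostdc1*, where all 6 *Tet2*-KO BM mice lie below all 6 WT BM mice.

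*Sostdc1* was the member that differed most. It encodes a secreted antagonist of bone morphogenetic proteins (BMPs) that also binds Wnt co-receptors, and it lies at chr12:36314139-36318452 (mm10, plus strand). Its lowest, median and highest levels were 3.76, 4.29 and 5.24 CPM in the WT BM group and 2.33, 2.80 and 3.50 CPM in the *Tet2*-KO BM group. The groups did not overlap, which held in the same direction for 130 of the tested genes (0.641%). The log2 fold change was -0.64 (SE 0.13, 95% interval -0.93 to -0.36), with an edgeR p of 0.000126 and an adjusted p of 0.104, the 22nd smallest p of all genes tested. In size it was not rare, as 5.20% of tested genes had a log2 fold change as low or lower. The adjusted p was 0.00292 by the DESeq2 Wald test and 0.0135 by limma-voom with quality weights. It was 0.0159 by edgeR without *Tet2*-KO BM replicate 5, where the unadjusted edgeR p was larger, at 0.000335, with a log2 fold change of -0.64. There 2257 genes were called in all, against 5 with all mice, so the lower adjusted p goes with the larger number of calls. Of 23 alternatives, 5 called it, and its adjusted p ran from 0.00292 to 0.219 over them, with 0.168 under the replicate block. Another of the 5 left out *Tet2*-KO BM replicate 5 and WT BM replicate 2, with an unadjusted edgeR p of 0.000573 and 1554 genes called in all. The exact two-sided permutation test gave p = 0.00216 (adjusted p = 0.176), the smallest that 6 against 6 mice allow. Groups that do not overlap must give this p, so it repeats that observation and is no further evidence. The counts behind these levels were 48 to 73 reads per WT BM mouse and 35 to 68 per *Tet2*-KO BM mouse.

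*Ttr*, the gene of transthyretin, which carries thyroid hormone and retinol in the cerebrospinal fluid, was by far the most abundant member (chr18:20665280-20674321, mm10, plus strand). Per kilobase of exon its mean level was 441 CPM in the WT BM group, while the next, *Foxj1*, was at 7.64 and the lowest, *Ccdc153*, at 0.988. The WT BM mice ranged from 439 to 586 CPM with a median of 545, and the *Tet2*-KO BM mice from 357 to 616 with a median of 418. The groups overlapped widely, with 3 *Tet2*-KO BM mice below all WT BM mice and 1, replicate 4, above all of them. The log2 fold change was -0.25 (SE 0.13, 95% interval -0.54 to 0.04), with an edgeR p of 0.0733 and an adjusted p of 0.260.

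*Kl* encodes klotho, a co-receptor for fibroblast growth factor 23 that is also shed into the cerebrospinal fluid, and it lies at chr5:150952607-150993817 (mm10, plus strand). It lay between 39.3 and 50.8 CPM in WT BM mice (median 44.1) and between 30.4 and 46.8 in *Tet2*-KO BM mice (median 33.8), so that 4 of 6 *Tet2*-KO BM mice were below every WT BM mouse. The log2 fold change of -0.28 (SE 0.10, 95% interval -0.50 to -0.06) had an edgeR p of 0.0126 and an adjusted p of 0.138. By limma-voom with quality weights its adjusted p was 0.0356, while by the DESeq2 Wald test it was 0.0599.

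The other 3 choroid plexus genes had intervals that included 0. *Folr1*, the gene of the folate receptor that moves folate from blood into cerebrospinal fluid (chr7:101858331-101870788, mm10, minus strand), had a median of 3.28 CPM in the WT BM group (2.47 to 4.45) and 2.86 in the *Tet2*-KO BM group (2.29 to 3.24), with a log2 fold change of -0.27 (SE 0.16, edgeR adjusted p = 0.344). *Clic6*, which belongs to the chloride intracellular channel family (chr16:92485736-92541243, mm10, plus strand), had a median of 15.4 CPM (12.4 to 17.5) against 12.7 (9.17 to 19.2), and its log2 fold change was -0.19 (SE 0.15, edgeR adjusted p = 0.493). Like *Ttr*, it was highest of all 12 mice in *Tet2*-KO BM replicate 4. *Kcnj13*, which encodes the inward rectifier potassium channel Kir7.1 of the epithelium (chr1:87386363-87394729, mm10, minus strand), was the least different, at 8.78 CPM (5.77 to 9.92) against 7.40 (6.75 to 8.64), a log2 fold change of -0.15 (SE 0.12, edgeR adjusted p = 0.497). Its count is uncertain, since 623 of its exon bases are shared with *Gigyf2* on the opposite strand and the strand setting of the counting is not given in the sources used here. *Gigyf2* had a log2 fold change of 0.00 (SE 0.04) and a level of 108 CPM ± 3.30 in the WT BM group.

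The ependymal genes were lower by similar estimates and with wider errors. *Foxj1*, the transcription factor that turns on motile cilium genes (chr11:116330704-116335399, mm10, minus strand), had a median of 17.7 CPM in the WT BM group (16.7 to 31.6) and 15.9 in the *Tet2*-KO BM group (13.3 to 24.9). In each group 1 mouse lay far above the rest, WT BM replicate 2 and *Tet2*-KO BM replicate 4. The log2 fold change was -0.23 (SE 0.18, 95% interval -0.64 to 0.17, edgeR adjusted p = 0.473). *Ccdc153*, a coiled-coil protein gene used as a marker of ependymal cells (chr9:44240676-44247306, mm10, plus strand), had medians of 1.77 CPM (1.65 to 3.16) and 1.39 CPM (1.08 to 2.43). For it 4 of 6 *Tet2*-KO BM mice lay below every WT BM mouse, and the log2 fold change was -0.41 (SE 0.22, 95% interval -0.90 to 0.09, edgeR adjusted p = 0.286). *Tmem212*, a transmembrane protein gene and ependymal marker (chr3:27866066-27896368, mm10, minus strand), rested on 10 to 31 reads per mouse. It had medians of 1.44 CPM (0.972 to 2.22) and 1.32 CPM (0.620 to 1.61) and a log2 fold change of -0.22 (SE 0.25, 95% interval -0.79 to 0.34, edgeR adjusted p = 0.635).

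WT BM replicate 2 weighed on the ependymal genes in particular. Without it their median log2 fold change was -0.06, against -0.23 with all mice, while that of the choroid plexus genes was -0.19 against -0.26. Without *Tet2*-KO BM replicate 4 the medians were -0.35 for the choroid plexus and -0.38 for the ependyma, and 5 of the 9 genes had an unadjusted p below 0.05, where the count over all genes was 5386 against 4678 with all mice. The 95% intervals of the ependymal genes reach further down than those of most choroid plexus genes, so these data do not separate the size of the difference in one cell type from that in the other, and that difference was not tested.

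**Figure D2:**
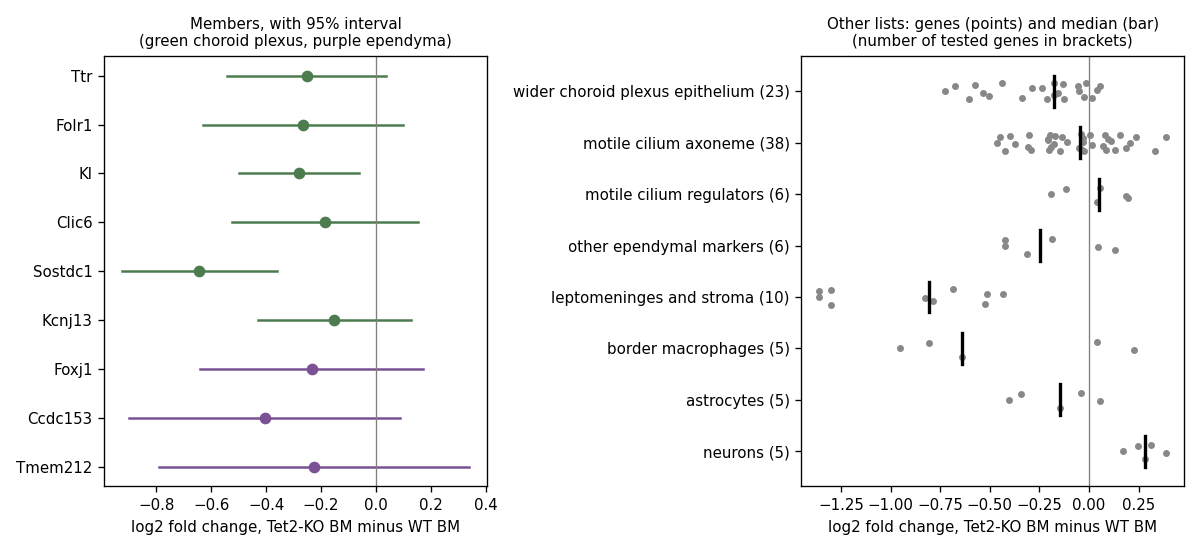
Left, log2 fold change (*Tet2*-KO BM minus WT BM, horizontal axis) of each member with its 95% interval; right, the log2 fold changes of the tested genes of 8 other lists, without intervals, and the list median as a bar. Of the 9 members, *Sostdc1* and *Kl* have intervals that exclude 0, and the leptomeningeal and stromal genes lie lower than any member list, with a median of -0.81.

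The mean log2 level of the 6 choroid plexus genes placed *Tet2*-KO BM replicate 4 with the higher WT BM mice, 0.08 above the WT BM mean, and the other 5 *Tet2*-KO BM mice at -0.54 to -0.31 from it. WT BM mice spanned -0.27 to 0.19. On the ependymal genes, *Tet2*-KO BM mice spanned -0.63 to 0.10 and WT BM mice -0.25 to 0.66. *Tet2*-KO BM replicate 1 was lowest on both, and WT BM replicate 2 was highest on the ependymal genes.

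**Figure D3:**
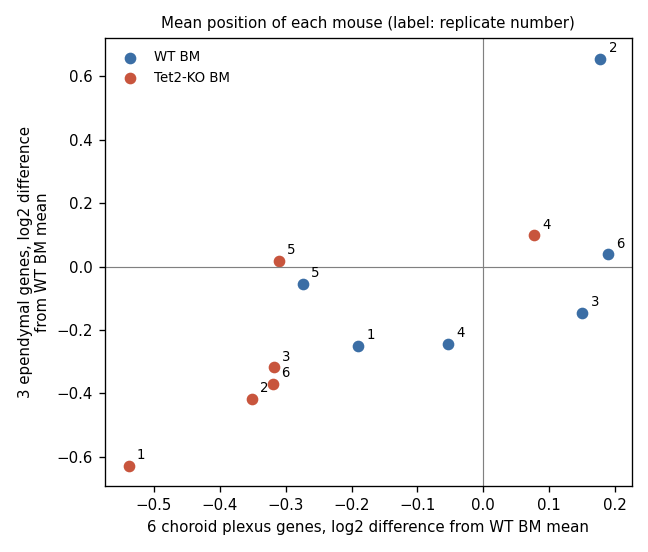
Each mouse (point, labelled with its replicate number) by the mean log2 difference from the WT BM mean of the 6 choroid plexus genes (horizontal axis) and of the 3 ependymal genes (vertical axis). *Tet2*-KO BM replicate 4 lies at 0.08 and 0.10, apart from the other *Tet2*-KO BM mice, and WT BM replicate 2 lies at 0.18 and 0.66.

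The choroid plexus genes were chosen as markers of the same epithelium, but whether they come from it alone in these brains was not tested. Each was also counted per 100 *Ttr* counts of the same mouse, which does not depend on how libraries are scaled. These ratios are given without a test, since the pair was looked at after its values were known. *Sostdc1* lay between 0.747 and 0.916 per 100 *Ttr* counts in WT BM mice (median 0.850) and between 0.568 and 0.729 in *Tet2*-KO BM mice (median 0.634), so that here too all 6 *Tet2*-KO BM mice were below all 6 WT BM mice. For the other choroid plexus genes the groups overlapped. *Kl* had medians of 8.77 and 8.58 per 100 *Ttr* counts, *Folr1* 0.602 and 0.639, *Clic6* 2.80 and 2.93, and *Kcnj13* 1.62 and 1.74, the WT BM group first in each case. *Foxj1* stood at 3.58 and 3.88 per 100 *Ttr* counts, and its ratio was highest in WT BM replicate 2, at 5.39.

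**Figure D4:**
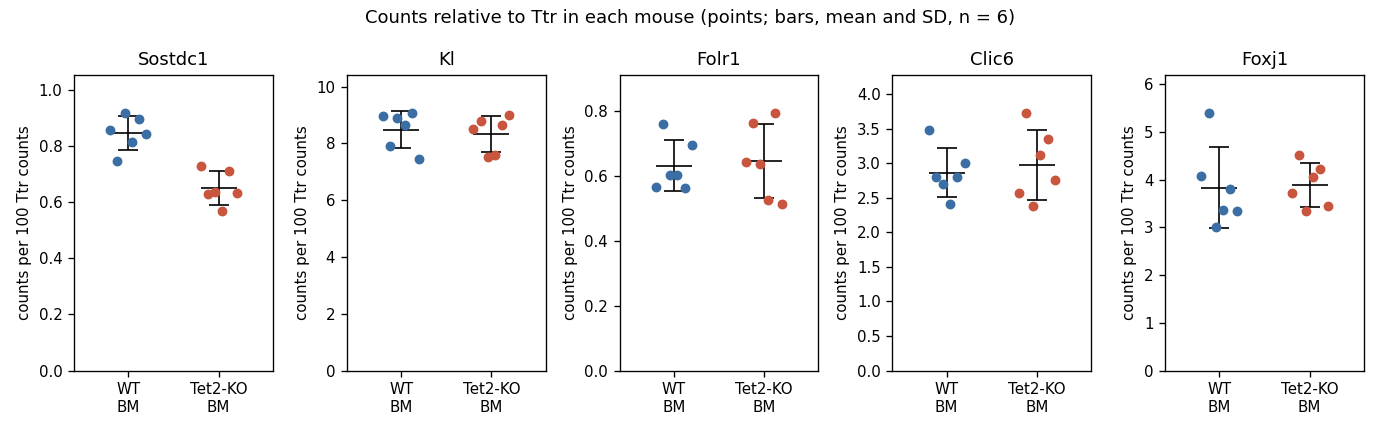
Counts per 100 *Ttr* counts (vertical axes, from 0) of 5 members in each mouse, with the mean and SD of each group of 6 as bars. *Sostdc1* separates the groups, at 0.747 to 0.916 in WT BM mice and 0.568 to 0.729 in *Tet2*-KO BM mice, and the other 4 do not.

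Between mice, most members varied together. Pearson's r and Spearman's rho of log2 CPM were computed over the 12 mice for 15 relations, each with *Ttr* or *Foxj1*, with permutation p-values adjusted over the 15 by Benjamini-Hochberg. *Kl* followed *Ttr* most closely, with r = 0.92 (permutation adjusted p = 0.00105, n = 12) and rho = 0.90 (permutation adjusted p = 0.00180, n = 12). In WT BM mice alone *Folr1*, *Kcnj13* and *Sostdc1* had a higher r with *Ttr* than *Kl* had. There r of *Kl* was 0.82 (exact permutation p = 0.0528, n = 6), which did not pass 0.05. In *Tet2*-KO BM mice r of *Kl* was 0.93 (exact permutation p = 0.00417, n = 6). With *Tet2*-KO BM replicate 4 and WT BM replicate 2 left out, the mice farthest from the median of *Ttr*, r was 0.91.

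Over the 12 mice *Sostdc1* had r = 0.81 with *Ttr* (permutation adjusted p = 0.0106, rho = 0.73 with adjusted p = 0.0197). Since the groups do not overlap for *Sostdc1*, that value includes the difference between them, and the relation was also tested within groups. It was r = 0.85 in WT BM mice (exact permutation p = 0.0528, n = 6) and r = 0.93 in *Tet2*-KO BM mice (exact permutation p = 0.00694, n = 6). The first did not pass 0.05, and the WT BM mouse with the most *Ttr*, replicate 2, had less *Sostdc1* than replicates 3 and 6.

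The remaining choroid plexus genes had r with *Ttr* of 0.74 for *Folr1* (permutation adjusted p = 0.0148, rho = 0.80 with adjusted p = 0.0146), 0.75 for *Clic6* (permutation adjusted p = 0.0126, rho = 0.67 with adjusted p = 0.0294) and 0.70 for *Kcnj13* (permutation adjusted p = 0.0237, rho = 0.73 with adjusted p = 0.0197). Without the 2 mice named above these were 0.70, 0.62 and 0.62, of which the last 2 had permutation p-values of 0.0526 and 0.0543. In WT BM mice alone r was 0.96 for *Folr1*, 0.62 for *Clic6* and 0.94 for *Kcnj13*, with exact permutation p-values of 0.00278, 0.164 and 0.00833 (n = 6). In *Tet2*-KO BM mice alone none of these 3 passed 0.05, with r of 0.50, 0.74 and 0.54 and exact permutation p-values of 0.288, 0.111 and 0.257.

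The ependymal genes were less alike. *Foxj1* had r = 0.73 with *Ttr* (permutation adjusted p = 0.0106, rho = 0.71 with adjusted p = 0.0228) and 0.66 without the 2 mice, and it was 0.52 in WT BM mice (exact permutation p = 0.304, n = 6) and 0.84 in *Tet2*-KO BM mice (exact permutation p = 0.0778, n = 6). Its r with *Ccdc153* was 0.66 (permutation adjusted p = 0.0301, rho = 0.59 with adjusted p = 0.0612) and was 0.42 without them (permutation p = 0.221), so that this relation rests on those mice. *Tmem212* behaved in the same way with *Foxj1*, with r = 0.67 (permutation adjusted p = 0.0301), rho = 0.31 (adjusted p = 0.332) and r = 0.45 without the 2 mice (permutation p = 0.188), and within groups r was 0.71 and 0.57 (exact permutation p = 0.0875 and 0.233, n = 6), the WT BM group first. Within groups, r of *Ccdc153* with *Foxj1* was 0.99 in WT BM mice (exact permutation p = 0.0167, n = 6) and 0.24 in *Tet2*-KO BM mice (exact permutation p = 0.651, n = 6). In the WT BM group replicate 2 lay far above the rest for both genes, so that the value of 0.99 leans on that mouse. *Tmem212* and *Ttr* had r = 0.61 (permutation adjusted p = 0.0393, rho = 0.56 with adjusted p = 0.0729) and r = 0.48 without the 2 mice (permutation p = 0.161), with 0.45 and 0.67 within groups (exact permutation p = 0.336 and 0.151, n = 6). *Ccdc153* showed no relation to *Ttr* that passed the test (r = 0.37, permutation adjusted p = 0.237, rho = 0.34 with adjusted p = 0.306), nor within groups, with r of 0.51 and -0.03 (exact permutation p = 0.335 and 0.964, n = 6). The closest partner of *Foxj1* among the members was a choroid plexus gene, *Clic6*, with r = 0.78 (permutation adjusted p = 0.0106) and rho = 0.90 (adjusted p = 0.00180), and 0.93 without the 2 mice. Within groups that r was 0.51 in WT BM mice (exact permutation p = 0.388, n = 6) and 0.97 in *Tet2*-KO BM mice (exact permutation p = 0.00139, n = 6). *Folr1*, *Kl* and *Kcnj13* had r with *Foxj1* of 0.75, 0.63 and 0.63 (permutation adjusted p = 0.0126, 0.0301 and 0.0301) and rho of 0.76, 0.69 and 0.74 (adjusted p = 0.0197, 0.0263 and 0.0197), and without the 2 mice r was 0.67, 0.65 and 0.57. In WT BM mice alone their r was 0.72, 0.24 and 0.51 (exact permutation p = 0.0208, 0.593 and 0.232, n = 6), and in *Tet2*-KO BM mice alone 0.74, 0.82 and 0.88 (exact permutation p = 0.0597, 0.0542 and 0.00417, n = 6). For *Sostdc1* and *Foxj1*, r over the 12 mice was 0.48 (permutation adjusted p = 0.128, rho = 0.63 with adjusted p = 0.0445). Within groups it was 0.06 in WT BM mice (exact permutation p = 0.913, n = 6) and 0.71 in *Tet2*-KO BM mice (exact permutation p = 0.140, n = 6).

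**Figure D5:**
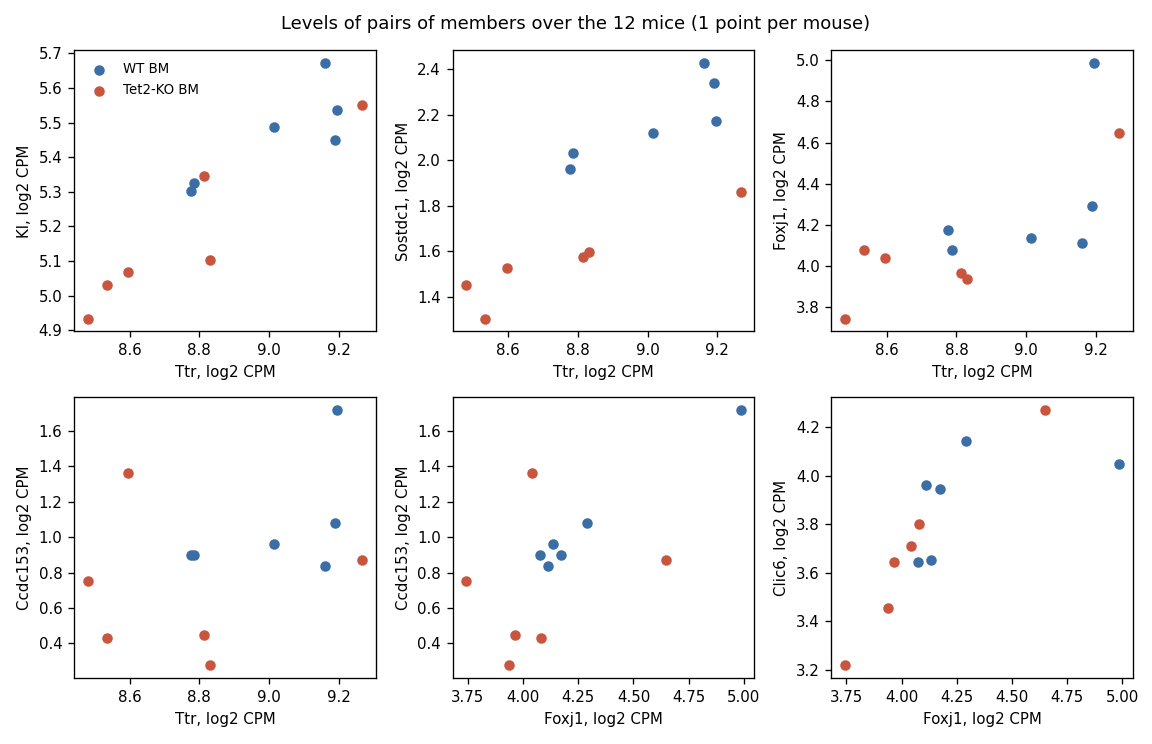
Log2 CPM of pairs of members, 1 point per mouse, WT BM in blue and *Tet2*-KO BM in red. *Kl* rises with *Ttr* along one line (r = 0.92), the *Sostdc1* points of the 2 groups lie apart, and *Ccdc153* has no clear relation to *Ttr* (r = 0.37).

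Among the 19100 tested genes with a mean of at least 1 CPM, the 10 most like *Ttr* over the 12 mice were *Tmem72* (r = 0.95), *Slc2a12*, *Kl*, *Faap24*, *F5*, *Gm4524*, *Enpp2*, *Greb1*, *Prkra* and *Ak7* (r = 0.86). Of these, *Kl* is a member, and *Tmem72*, *F5* and *Enpp2* are in the wider list of choroid plexus genes described below, while *Ak7* is in the list of ciliary axoneme genes. Over the 12 mice pooled, *Sostdc1* ranked 29th, a place that includes its difference between the groups, *Clic6* 86th, *Folr1* 104th, *Foxj1* 140th, *Kcnj13* 232nd, *Tmem212* 922nd and *Ccdc153* 4611th. The 10 most like *Foxj1* were *Abhd4* (r = 0.97), *Capns1*, *Parvb*, *Vangl2*, *Prdx6*, *Tgfa*, *Dhrs1*, *Pcdhgc3*, *Igsf1* and *Rhbdf1* (r = 0.94), none of them on any list used here. *Tmem212* ranked 2349th and *Ccdc153* 2479th by likeness to *Foxj1*. The median r with *Foxj1* was 0.57 over 35 genes of the ciliary axoneme, 0.68 over 5 astrocyte markers and -0.87 over 5 neuronal markers, where it was 0.00 over all these genes. With *Ttr* the same lists had medians of 0.46, 0.66 and -0.62, and 21 wider choroid plexus genes 0.64. All of these values share the libraries and their scaling.

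A wider list of 25 choroid plexus epithelium genes, without the members, had 23 tested genes. In bulk brain these genes need not come from that epithelium alone, and the share from other cells was not tested. At an unadjusted p below 0.05, 7 were lower and none higher, beside 12.2% and 10.8% of all genes, with a median log2 fold change of -0.18. None passed the adjusted threshold in edgeR, the DESeq2 Wald test called 3 lower, beside 4.81% of all genes, and limma-voom called 3. The smallest p-values were those of *Col8a1*, a short-chain collagen, with a log2 fold change of -0.73 (SE 0.19), *Aqp1*, the water channel of the apical membrane, with -0.53 (SE 0.16), and *Msx1*, a homeobox factor, with -0.57 (SE 0.19). Estimates were below 0 for 20 of the 23 genes and above 0 for 3, among them *Otx2*, the homeobox factor that the epithelium needs, at 0.04 (SE 0.16) and the serotonin receptor gene *Htr2c* at 0.06 (SE 0.07). The summed level of the list ran from 899 to 1110 CPM in WT BM mice and from 800 to 1086 in *Tet2*-KO BM mice, 5 of which lay below every WT BM mouse. The largest part of that sum was *Enpp2*, with means of 446 CPM in the WT BM group and 395 in the *Tet2*-KO BM group. For *Enpp2* alone 5 *Tet2*-KO BM mice also lay below every WT BM mouse, so the sum mostly follows a few abundant genes.

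Genes of the moving parts of cilia were spread around 0. Of 39 axoneme genes, 38 were tested, with a median of -0.05. At an unadjusted p below 0.05 there were 4 lower and 1 higher, beside 12.2% and 10.8% of all genes. *Drc7*, of the dynein regulatory complex, had a log2 fold change of -0.29 (SE 0.12), *Cfap43* -0.45 (SE 0.18) and *Dnaic2*, a dynein intermediate chain gene, 0.39 (SE 0.16). Of 9 regulators of ciliated cell fate, 6 were tested, and none had a p below 0.05. *Rfx3*, a factor that acts with *Foxj1*, stood at 0.18 (SE 0.09), *Rfx2* at -0.19 (SE 0.13) and *Ccno* at 0.20 (SE 0.18). Of 10 further ependymal markers, 6 were tested, 4 of them with estimates below 0. Their median was -0.25, near that of the ependymal members, and -0.05 without WT BM replicate 2. Of the 6, 1, *Enkur*, had a p below 0.05, with -0.42 (SE 0.18), beside *Rarres2* with -0.31 (SE 0.21) and *Dynlrb2* with -0.42 (SE 0.38).

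Genes that work with the members were counted in the same way, at an unadjusted p below 0.05. At that threshold 12.2% of all genes were lower and 10.8% higher, and each list is short. For secretion of cerebrospinal fluid, 3 of 13 were lower and 1 higher (median -0.05), led by *Aqp1*, the anion exchanger *Slc4a2* (-0.21, SE 0.09) and the potassium channel subunit *Kcne2* (-0.34, SE 0.15). For transport and reception of thyroid hormone and retinol, where *Ttr* acts, 1 of 10 was lower and 2 higher (median -0.01), and the genes that were higher were the thyroid hormone receptors *Thrb* (0.26, SE 0.08) and *Thra* (0.23, SE 0.08). Folate uptake and use, where *Folr1* acts, had 3 of 9 lower and none higher (median -0.11). There the second folate receptor gene, *Folr2*, which macrophages express, had a log2 fold change of -1.36 (SE 0.39), and the mitochondrial enzyme gene *Mthfd2* had -0.30 (SE 0.13).

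Of the 9 genes around klotho, 6 were tested and 2 were lower, none higher (median -0.17). They were *Vdr*, the vitamin D receptor, with -0.92 (SE 0.38) and *Fgfr2* with -0.19 (SE 0.08), while *Fgfr1* stood at -0.15 (SE 0.08). *Fgf23* itself was among those not tested for low counts. Of the 10 BMP and Wnt co-receptor genes around *Sostdc1*, 9 were tested, with 1 lower and 1 higher (median -0.15). *Nog*, another secreted BMP antagonist, had a log2 fold change of 0.43 (SE 0.13), opposite in sign to that of *Sostdc1*, *Bmp6* had -0.41 (SE 0.17), and the Wnt co-receptor *Lrp5* had -0.48 (SE 0.22). Of the 4 other CLIC genes, 2 were lower, *Clic4* (-0.39, SE 0.13) and *Clic1* (-0.81, SE 0.33), and *Clic5* stood at 0.20 (SE 0.11). None of the genes in these pathway lists passed the adjusted threshold in edgeR. The DESeq2 Wald test called *Aqp1* (adjusted p = 0.0319), *Folr2* (0.0169) and *Clic4* (0.0354) lower and *Thrb* (0.0349) and *Nog* (0.0361) higher. By that test 4.81% of all genes were called lower, and 1464 genes were called in both directions together.

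Markers of other cell types and regions also differed between the groups, some in the direction of the members and some in the other, and their part in the results was not tested. Of 10 leptomeningeal and stromal genes, 9 were lower at an unadjusted p below 0.05, where 12.2% of all genes were lower and 10.8% higher. Their summed level ran from 787 to 1619 CPM in WT BM mice and from 215 to 1004 in *Tet2*-KO BM mice. Border macrophage markers, which choroid plexus macrophages share, summed to 24.1 to 42.4 and 11.6 to 32.6 CPM, with 2 of 5 lower at that threshold, while *Cd163* (0.04, SE 0.14) and *Lyve1* (0.22, SE 0.28) had estimates above 0. The 5 neuronal markers were all higher at that threshold, opposite to the members, with a median log2 fold change of 0.28, with sums of 2409 to 3640 and 3190 to 4452 CPM, and none of the 5 astrocyte markers passed it, with sums of 1494 to 2986 and 951 to 2426 CPM. All 4 cortical markers had estimates above 0, 3 of them at an unadjusted p below 0.05 and 1 called by DESeq2, and they summed to 227 to 325 CPM in WT BM mice and 287 to 417 in *Tet2*-KO BM mice. All 4 striatal markers had estimates above 0 as well, 1 of them at that threshold, with sums of 155 to 182 and 134 to 240 CPM. Of 4 thalamic markers, 1 was lower and none higher at an unadjusted p below 0.05. The hindbrain marker *Slc6a5*, the single one of 3 that was tested, ranged from 1.32 to 10.6 CPM in WT BM mice and from 1.90 to 9.41 in *Tet2*-KO BM mice, and the 3 tested cerebellar markers summed to 9.31 to 15.4 and 8.86 to 35.5 CPM. Of the 2 markers of the fenestrated vessels in the choroid plexus, none had a p below 0.05, *Plvap* standing at -0.10 (SE 0.09) and *Esm1* at 0.26 (SE 0.27).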

How the data were processed

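Brains of 12 mice, 6 per group, were profiled by bulk RNA-sequencing of ribosomal RNA-depleted total RNA. The authors used Trimmomatic 0.36 to trim paired reads, STAR 2.5.2b to align them (mm10, per the submitters' processing notes) and counted unique reads in exons with featureCounts of Subread 1.5.2. The deposited values are raw counts per Ensembl gene, and the annotation and strand setting are not given in the sources used here.

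Symbols and positions came from GENCODE M21. In R 4.3.3, edgeR 4.0.16 (filterByExpr, TMM, robust quasi-likelihood F test, no covariates, Benjamini-Hochberg over all tested genes, threshold 0.05) gave log2 fold changes, with standard errors from the estimate and its F, and 95% intervals from the t distribution. A prior count of 2 was used for log2 CPM. Correlations took 100000 permutations in numpy. The alternatives were DESeq2 1.42.0, limma-voom 3.58.1, other scalings, no filter, a replicate block, an exact permutation test and mice left out. Tests were tested on simulated counts. The 9 genes and all lists were chosen with earlier results of these data known. Named genes are all members, the 3 genes of smallest p in each wider or pathway list, and the 10 most like *Ttr* and *Foxj1*. The single values of 2 genes that this rule names are left out. *Otx2*, *Htr2c*, *Plvap*, *Esm1*, *Cd163*, *Lyve1*, *Slc6a5* and *Gigyf2* were named after their values were seen.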

Additional observations from a re-analysis of the deposited data

Results flagged for a closer look

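A mouse far from the rest of its group, by Dixon's test at the 95% level, was found in 3 of the 18 sets of values tested (9 genes in 2 groups), where chance flags about 1 in 20 groups. *Foxj1* stood at 31.6 CPM in WT BM replicate 2, where the next highest mouse of its group had 19.4 CPM. *Foxj1* also stood at 24.9 CPM in *Tet2*-KO BM replicate 4, where the next had 16.8 CPM. *Ccdc153* stood at 3.16 CPM in WT BM replicate 2, where the next had 1.98 CPM. All 3 values belong to ependymal genes.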

How the results depend on the processing

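In each of 23 alternatives every member kept a log2 fold change below 0. None of the 9 members was called by edgeR with all mice, whereas 1 was called by DESeq2 with or without the filter on low counts, 2 by limma-voom with quality weights, 1 without WT BM replicate 2 and *Tet2*-KO BM replicate 5 (left out after the data were seen), and 0 to 1 when 1 mouse was left out at a time, the call being *Sostdc1* without *Tet2*-KO BM replicate 5. Without that mouse 2257 genes were called in all, against 5 with it. The 2 members at an unadjusted p below 0.05 became 4 by limma-voom, 3 by DESeq2, 1 without WT BM replicate 2 and *Tet2*-KO BM replicate 5, 5 without *Tet2*-KO BM replicates 2 and 4, and 2 to 5 with 1 mouse left out at a time. Over all genes the count at that threshold moved as well. It was 4678 with all mice by edgeR, and in the same order 5315, 5143, 4689, 4688, and 3130 to 5744 with 1 mouse left out. The median log2 fold change ran from -0.35 to -0.19 for the choroid plexus and from -0.38 to -0.06 for the ependyma with 1 mouse left out. The replicate block gave medians of -0.26 and -0.23 and 3 members at an unadjusted p below 0.05, with 0 genes called in all. Replicate numbers did not pair the mice, with correlations of deviations from -0.17 to 0.23 and 1 of 6 above 0.1. Over all genes the DESeq2 Wald test called 1464, limma-voom 1863 and edgeR without a filter 44. Low counts limit *Tmem212*, *Ccdc153*, *Folr1* and *Sostdc1*, each with 10 to 73 reads per mouse.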
